A study of Arabidopsis thaliana with 4 samples.

Results

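The beta-glucosidase genes described here are the Arabidopsis thaliana genes whose symbol is BGLU and a number, which have a probe set paired with that gene alone and which were selected on a mean signal of 29 or more over the arrays. Of 20 such genes with a probe set of their own, 8 met this signal, out of 7327 genes that met it in all. They are BGLU15, BGLU16, BGLU25, BGLU33, BGLU40, BGLU42, BGLU44 and BGLU47. BGLU40 gave the clearest result: it rose with abscisic acid (ABA), and was 3.51-fold higher with ABA in vector plants and 5.78-fold in plants that overexpress ERD15. BGLU25 had the largest difference between the genotypes among the 8 under mock spray, 3.94-fold, but under ABA it differed 1.27-fold, less than BGLU44, BGLU16 and BGLU33. The ABA differences of BGLU15, BGLU42, BGLU44 and BGLU47 were positive in both genotypes, past 2-fold for BGLU44 in the overexpressor alone. Those of BGLU16, BGLU25 and BGLU33 had opposite signs in the genotypes. BGLU25 was 2.26-fold higher with ABA in vector plants and 1.37-fold lower in the overexpressor. With arrays centred on the median, the ABA difference of BGLU42 in the overexpressor turned negative.

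Transcript levels in rosette leaves of 3-week-old, soil-grown Col-0 plants were measured on ATH1 arrays, with 4 groups of 1 array each. Vector plants carried pCP60, while the overexpressors were a single line, "ERD15 oex 52". The ERD15 protein is small, acidic and made early in dehydration. Leaves were collected 90 min after a spray with 100 µM ABA, or with water as the mock, and the ethanol content was 0.07% in either. Seedlings of all groups had germinated on kanamycin. A sample pooled 3 plants where the labels give a number, but for vector mock they give none. A characteristic of both overexpressor samples names a knock-out, against their titles and source names, and they are treated as overexpressors here. The promoter of the transgene is not given in the sources used here, and ERD15 has no paired probe set, so that the genotype was not checked on the arrays.

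Beta-glucosidases of this family are glycoside hydrolases that remove a glucose from small molecules which plants keep as inactive glucosides. Their substrates include conjugated hormones, flavonols, coumarins, lignin precursors and the glucosinolates of mustard relatives, and hydrolysis releases the active or reactive part. ABA itself is stored as a glucose ester, and the beta-glucosidases BGLU18, in the endoplasmic reticulum, and BGLU33, in the vacuole, can set it free. For many family members the natural substrate is not known. The RefSeq gene table for TAIR10.1 holds 47 family genes, 40 with a BGLU symbol and 7 known under another name, such as the myrosinases TGG1 and TGG2. BGLU18 is among the 20 BGLU genes with no probe set of their own in the annotation used, and was not analysed here.

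The signals are linear MAS5 intensities, scaled so that the trimmed mean of an array is 100. The vector mock array stood somewhat apart: over the 7327 genes, its log2 signals correlated with those of the other arrays at a Pearson r of 0.878 to 0.902, against 0.911 to 0.935 among the others. The overexpressor mock array had the lowest 25S ribosomal RNA control, 262 against 833 to 2109. Of the 16 listed names for mesophyll and photosynthesis markers, 4 were measured, and their summed signal was 28094 under mock and 21541 under ABA in vector plants, and 14916 and 22120 in the overexpressor. The brightest of them, LHCB4.1 of the light-harvesting antenna and RCA, the Rubisco activase, were lowest on overexpressor mock, at 4832 and 4094, as was LHCB4.2, whereas PORB read 2091 there and had its lowest signal, 997, in ABA-sprayed vector plants. FMA, a guard cell and myrosin cell regulator and the 1 measured marker of these cells, read 59.2 and 61.7 in vector plants and 38.4 and 47.9 in the overexpressor, mock before ABA. The root marker PYK10, itself a beta-glucosidase (BGLU23) of endoplasmic reticulum bodies, lay at 11.8 to 19.5, near the floor of 13.3 under which signals were not resolved. No listed marker of vasculature or of flowers and seeds was measured. In leaves taken whole, fewer cells of a type and less RNA per cell cannot be told apart.

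Membership rests on mean signal, which ran from 37.1 for BGLU15, the member nearest the limit, to 483 for BGLU40. BGLU41, at 20.6, was the brightest of the probed BGLU genes left out. BGLU15 passed through its ABA arrays, as its mock signals alone were 28.2 and 29.2. All 8 genes were above the floor on all 4 arrays, and each is represented by 1 probe set. Signals of different probe sets depend on the probes, so the levels of the 8 genes are not ranked against each other. In gene order, BGLU15, BGLU16 and BGLU44 have another family gene within 2 genes, and the other 5 have none. The probed neighbours of these 3 genes were all under the limit: BGLU28 and BGLU29 beside BGLU15, BGLU27 beside BGLU16, and BGLU43 beside BGLU44 had mean signals of 7.87, 16.2, 13.6 and 1.84.

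**Figure D1:**
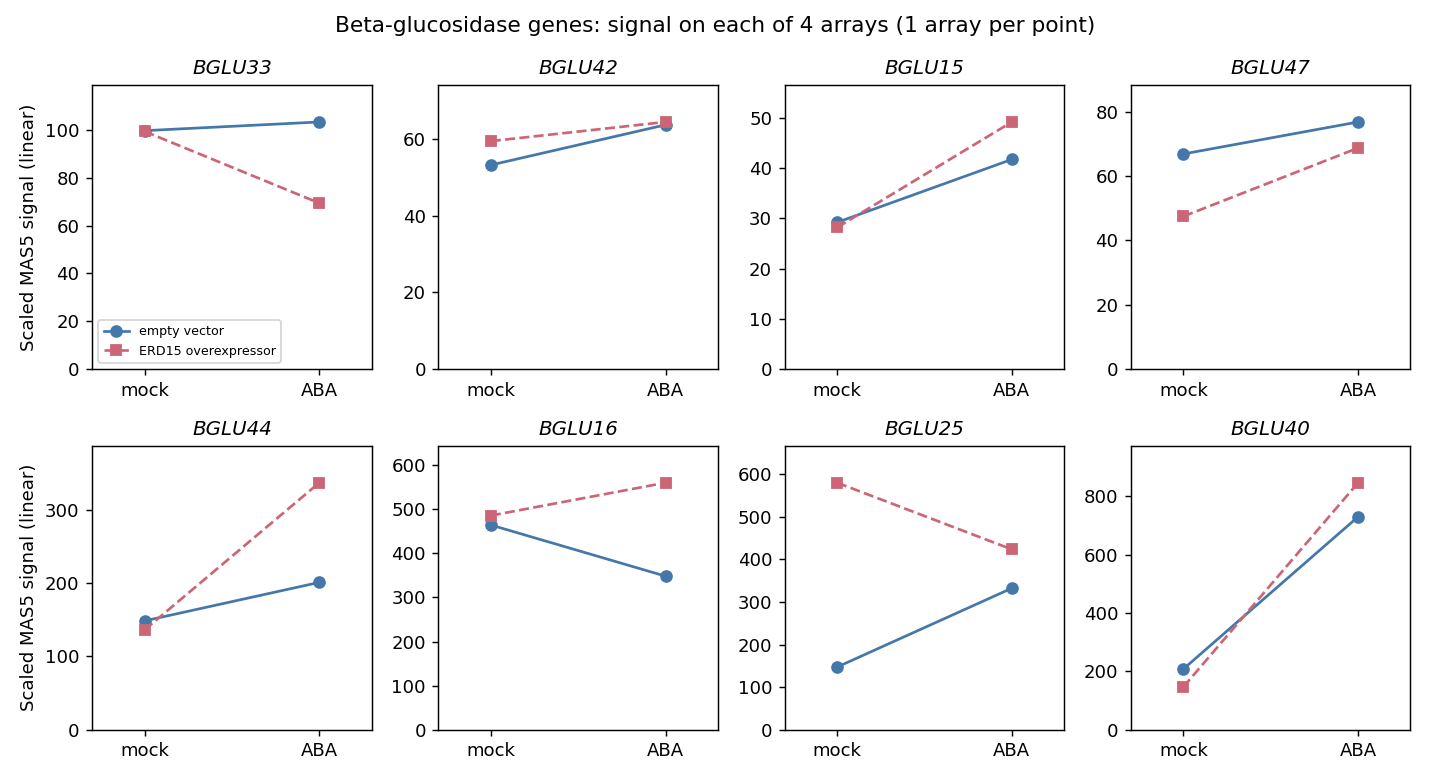
Scaled MAS5 signal (linear axis from 0) of each of the 8 beta-glucosidase genes under mock and ABA spray, with 1 array per point, so that no error bar is drawn; circles and solid lines are empty-vector plants, squares and dashed lines the ERD15 overexpressor. BGLU40 goes from 208 to 730 in vector plants and from 147 to 847 in the overexpressor, while BGLU25 is lowest on vector mock, at 147, and highest on overexpressor mock, at 580.

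The first comparison was of ABA with mock spray, with the effect averaged over both genotypes. A gene can thus pass on a large difference in a single genotype. By an additive limma fit over the 4 arrays, BGLU40 and BGLU44 passed the threshold for ABA, both higher, against a background of 1.68% of genes that passed upward and 3.13% in either direction. Of all genes, 123 passed upward and 106 downward, against 29 and 39 with arrays centred on the median, where BGLU40 alone passed among the members. The call of BGLU44 is borderline and is described with its limits below. This fit leaves 1 degree of freedom for the residual and sets the standard error (SE) of a gene by the spread of genes of like signal, so its p-values do not measure variation between plants. An exact permutation of the 4 arrays, taken 2 against 2, cannot give a two-sided p under 0.333.

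BGLU33, the vacuolar hydrolase of the ABA glucose ester, read 99.7 under mock and 103 under ABA in vector plants, and 99.4 and 69.4 in the overexpressor. The ABA-sprayed overexpressor was the low array, while the other arrays lay close together. Its log2 ABA difference was 0.05 for vector and -0.52 for overexpressor plants, and the fitted effect over both was -0.23 ± 0.31 (SE, 4 arrays; limma adjusted p = 0.999). Of the opposite step, the glucosyltransferase UGT71C5, which conjugates ABA with glucose, read 116 and 82.1 in vector plants and 108 and 67.8 in the overexpressor. Both of its ABA arrays were below both mock arrays, with a fitted log2 effect of -0.58 ± 0.31 that did not pass (adjusted p = 0.611). UGT71B6, which also glucosylates ABA, had a mean signal of 1.36 and was not measured. Of 25 listed names for ABA glucose ester and ABA pool genes, 2 were measured and 0 passed for either effect by limma, with 0 at an unadjusted p under 0.05.

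Among the members that act on phenolic glucosides, BGLU42 is needed in roots for the release of coumarins and for induced systemic resistance. Its leaf signals went from 53.3 under mock to 63.8 under ABA in vector plants and from 59.5 to 64.5 in the overexpressor. It varied least of the 8 genes, with 1.21-fold between its highest and lowest array, and its fitted ABA effect was 0.19 ± 0.37 (adjusted p = 0.999). Its ABA difference in the overexpressor, 0.12, became -0.08 when arrays were centred on the median.

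BGLU15 hydrolyses flavonol bisglycosides, the leaf pigments that accumulate under abiotic stress. It was at 29.2 under mock and 41.8 under ABA in vector plants, and at 28.2 and 49.2 in the overexpressor. Both ABA arrays were above both mock arrays, by 1.43-fold in vector plants and 1.75-fold in the overexpressor. At this low signal the SE was the widest among the members, and the fitted log2 effect of 0.66 ± 0.57 did not pass (adjusted p = 0.999).

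BGLU47 belongs to the same branch as BGLU45 and BGLU46, which hydrolyse the glucosides of monolignols, the building blocks of lignin. Its signals were 66.8 and 76.8 in vector plants and 47.4 and 68.7 in the overexpressor, mock before ABA. The lower ABA array only just exceeded the higher mock array. The fitted ABA effect was 0.37 ± 0.36 (adjusted p = 0.999).

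BGLU44 prefers beta-mannosides to glucosides when assayed as a purified enzyme. It went from 148 to 201 with ABA in vector plants and from 136 to 337 in the overexpressor. The ABA-sprayed overexpressor stood above the other arrays, and both ABA arrays were above both mock arrays. The ABA difference was 1.35-fold in vector plants and 2.47-fold in the overexpressor, and the fitted log2 effect was 0.87 ± 0.28 (limma adjusted p = 0.0497). That call was lost under each of 9 other settings, with adjusted p-values from 0.0501 to 0.945, so BGLU44 is better read by its signals than by the call.

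BGLU40 is a member for which no natural substrate is stated here. Its signal went from 208 under mock to 730 under ABA in vector plants, and from 147 to 847 in the overexpressor. The 2 ABA arrays were close to each other and far above both mock arrays. Its log2 rise was 1.81 and 2.53 in these genotypes, with a fitted effect of 2.17 ± 0.27, or 4.50-fold (limma adjusted p = 9.71e-13). This was the 14th highest ABA effect among the 7327 genes. Within 1 genotype it ranked 79 from the top in vector plants and 7 in the overexpressor. BGLU40 was the 1 member at least 2-fold higher in both genotypes, as were 0.969% of all genes. It passed in 7 of 9 other settings and missed in 2, with adjusted p = 0.0742 without a trend on signal in eBayes and 0.945 with no filter on dim genes, where no gene passed. Beside it, COR15A, a chloroplast-protecting gene of the ABA and dehydration response, went from 305 to 1033 and from 217 to 1044, a fitted log2 effect of 2.01 ± 0.28. In that list of 24 names, 4 genes were measured and 3 passed upward by limma, against 1.68% of all genes. Besides COR15A these were the dehydrin genes COR47 (1.14 ± 0.31, limma adjusted p = 0.0126) and LTI30 (1.42 ± 0.29, adjusted p = 8.2e-05). COR15B was higher with ABA in both genotypes too, but its fitted log2 effect of 0.52 ± 0.30 did not pass.

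BGLU16 and BGLU25 did not move with ABA in a common direction. BGLU16 went from 464 down to 348 with ABA in vector plants and from 486 up to 560 in the overexpressor, so that the mock arrays lay between the ABA arrays. BGLU25 went from 147 up to 332 in vector plants, 2.26-fold, and from 580 down to 424 in the overexpressor, 1.37-fold. Their fitted ABA effects were -0.10 ± 0.27 and 0.36 ± 0.27 (adjusted p = 0.999 and 0.985).

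**Figure D2:**
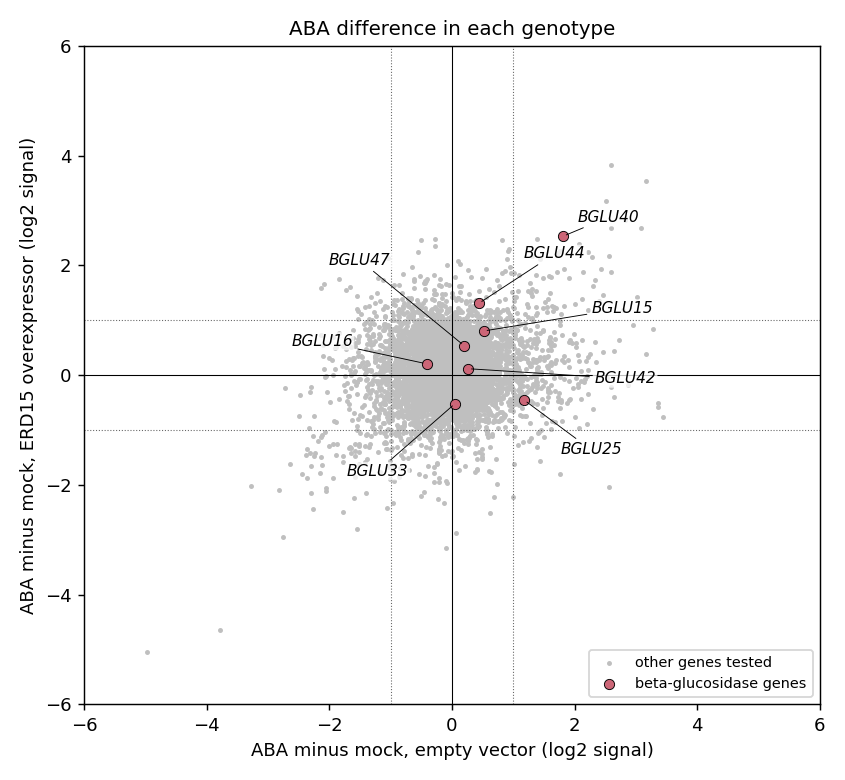
Log2 difference between the ABA and the mock array in empty-vector plants (horizontal) and in the ERD15 overexpressor (vertical), for the 8 beta-glucosidase genes (filled points, named) and all genes tested (grey); dotted lines mark 2-fold. BGLU40 lies at 1.81 and 2.53, past 2-fold on both axes, BGLU25 at 1.18 and -0.45, and the other 6 lie within 2-fold on at least 1 axis.

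Counted without a test, 5 of the 8 genes (62.5%) had both ABA arrays above both mock arrays and 0 had them below, where 15.4% of all genes had the first pattern and 16.6% the second. The median fitted log2 ABA effect was 0.36 over the 8 genes and -0.01 over all 7327. ABA differences were positive in both genotypes for the same 5 genes, against 23.5% of all genes. The filter on mean signal favours genes that are high on some arrays, so these figures describe the members and support nothing further. Over all 20 probed BGLU genes with no filter, 6 (30%) had both ABA arrays above and 1 had them below, against 11.6% and 11.9% of 13356 genes. These 6 include the same 5 members. Of the 12 genes under the limit, only BGLU41 had the ABA arrays above and only BGLU45 had them below. With arrays centred on the median, 4 of the 8 genes had the ABA arrays above and 0 below, against 14.9% and 16.6% of all genes. At 2-fold, BGLU25 and BGLU40 were higher with ABA in vector plants, against 4.85% of genes, and BGLU40 and BGLU44 in the overexpressor, against 5.02%. No member was 2-fold lower with ABA in either genotype, against 5.34% and 3.56% of genes. These shares depend on the scaling: with arrays centred on the median, 6.51% of genes were 2-fold higher and 3.41% lower in vector plants, and 2.88% higher and 5.66% lower in the overexpressor, with the same counts of members. With quantile normalization the shares were 5.54% and 4.12% in vector plants and 3.02% and 4.27% in the overexpressor.

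BGLU15, BGLU40, BGLU44 and BGLU47 had their lowest signal on the overexpressor mock array, which is the lowest array for 28.9% of all genes. The summed mesophyll markers, though not PORB among them, and the 25S ribosomal RNA control were lowest on that array too, and the part of this in the larger ABA difference of these 4 genes in the overexpressor was not tested. In vector plants, where that array is not used, their ABA differences were 0.52, 1.81, 0.44 and 0.20 in log2, in the order given. With arrays centred on the median, the overexpressor did not have the larger ABA difference for BGLU15 (0.61 against 0.69) or BGLU47 (0.34 against 0.38). With quantile normalization this held for BGLU15 (0.55 against 0.72) but not for BGLU47. For BGLU40 and BGLU44 the overexpressor kept the larger difference in both settings.

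The next comparison was between the genotypes. By limma, 1 member passed over both sprays, BGLU25, which was higher in the overexpressor, against 1.06% of genes that passed upward and 1.62% in either direction. Of all genes, 78 passed upward and 41 downward, against 3 and 3 with quantile normalization and 2 and 2 with arrays centred on the median. Its fitted log2 difference was 1.16 ± 0.27, or 2.24-fold (adjusted p = 0.00256). This average joins unlike values, a log2 of 1.98 under mock and 0.35 under ABA. Its signal of 147 on vector mock was the low one, against 332 to 580 on the other arrays. Without the vector mock array only the ABA-sprayed pair remains, 332 in vector plants and 424 in the overexpressor, a difference of 1.27-fold with no test. The residual of BGLU25 in the additive fit was 3.01 times the spread that limma assigned to it, and for BGLU40 and BGLU44 this was 1.32 and 1.58 times. The call was kept in 5 of 9 other settings. It was lost with quantile normalization (adjusted p = 0.199), with arrays centred on the median (0.693), without a trend in eBayes (0.825) and with no filter (0.900).

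**Figure D3:**
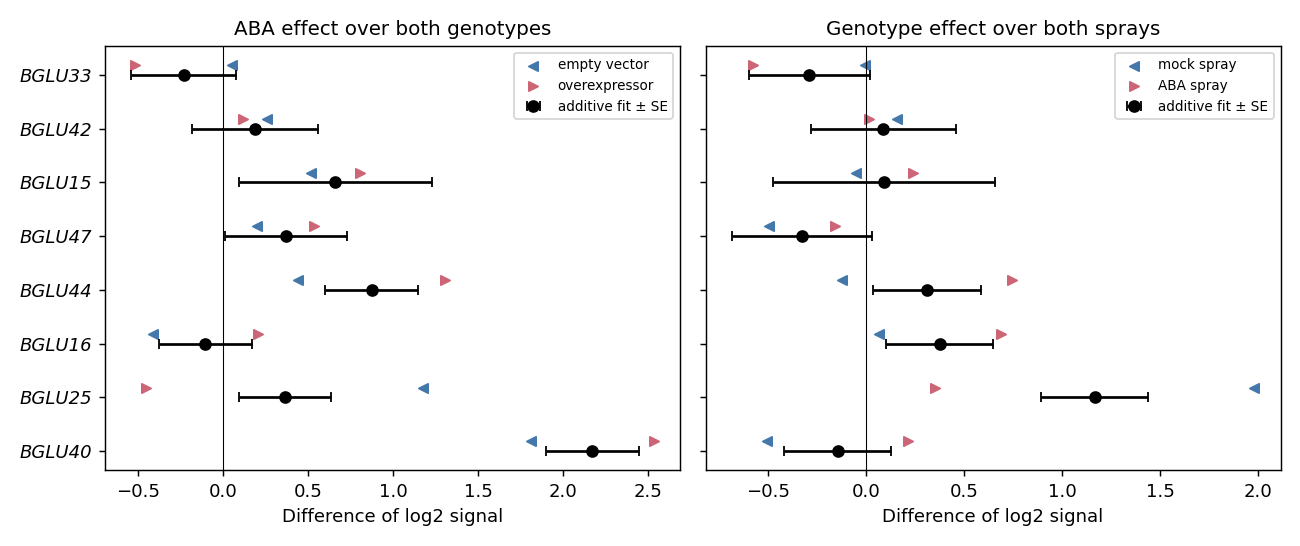
Fitted log2 difference with its SE (black, additive limma fit over 4 arrays) for the ABA effect (left) and the genotype effect, overexpressor minus vector (right), and above each the 2 single-array differences it averages (triangles). For BGLU40 the ABA difference is 1.81 in vector plants and 2.53 in the overexpressor around a fitted 2.17. For BGLU25 the genotype difference is 1.98 under mock and 0.35 under ABA around a fitted 1.16.

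The other 7 members did not pass for genotype (limma adjusted p from 0.851 to 0.996). BGLU16 came next in size among the higher ones, at 1.05-fold under mock and 1.61-fold under ABA, and both of its overexpressor arrays were above both vector arrays. BGLU44 was at 1.68-fold under ABA but slightly lower in the overexpressor under mock, with a log2 difference of -0.12 there. BGLU33 had no visible difference under mock, with signals of 99.7 and 99.4, and was 1.49-fold lower in the overexpressor under ABA. BGLU47 was lower in the overexpressor under both sprays, by 1.41-fold and 1.12-fold. BGLU40, BGLU42 and BGLU15 had fitted log2 genotype differences of -0.15, 0.09 and 0.09, each with an SE larger than the value. At 2-fold, BGLU25 was the 1 member higher under mock, against 4.9% of genes (7.18% with arrays centred on the median), and no member differed under ABA, against 6.06% of genes in either direction. Overexpressor and vector arrays did not overlap for 3 members, BGLU16 and BGLU25 being higher and BGLU33 lower, against 18.5% and 17.3% of genes. For BGLU33 this rests on 99.4 against 99.7 under mock, and with arrays centred on the median its mock difference was 0.17. In that setting 2 members were higher and 0 lower, against 15.3% and 18.5% of genes.

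**Figure D4:**
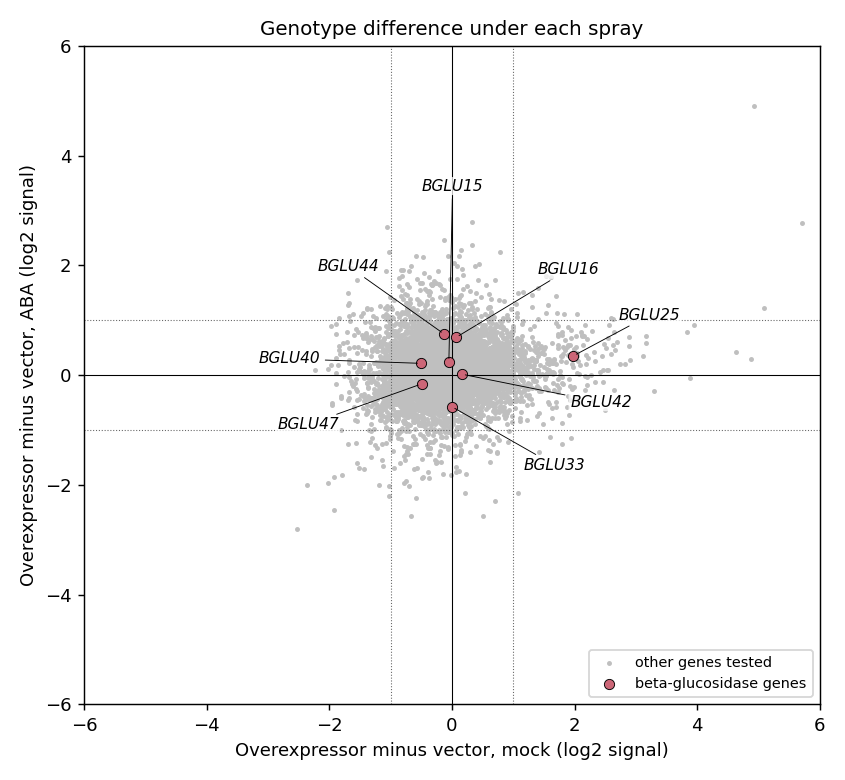
Log2 difference between the overexpressor and the vector array under mock (horizontal) and under ABA (vertical), for the 8 beta-glucosidase genes (filled points, named) and all genes tested (grey); dotted lines mark 2-fold. BGLU25 lies at 1.98 and 0.35 and is the 1 member past 2-fold, on the mock axis.

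The ABA effect was also compared between the genotypes, for which single arrays allow no test. The log2 ABA difference in the overexpressor minus that in vector plants was -1.63 for BGLU25, past 2-fold, as were 18.6% of all genes in either direction and 6.76% in the negative one (13.6% with arrays centred on the median and 8.45% with quantile normalization). It was 0.87 for BGLU44, 0.72 for BGLU40, 0.62 for BGLU16 and -0.57 for BGLU33. For BGLU47, BGLU15 and BGLU42 it was 0.33, 0.29 and -0.14. The median over all genes was 0.14 and shifted by -0.37 when arrays were centred on the median, which brought BGLU44 to 0.50, BGLU40 to 0.35, BGLU16 to 0.25, BGLU33 to -0.94 and BGLU42 to -0.51, and turned BGLU15 and BGLU47 to -0.08 and -0.03. With quantile normalization BGLU44 was at 0.96, BGLU40 at 0.94 and BGLU16 at 0.74, while BGLU42 was at -0.33, BGLU47 at 0.15 and BGLU15 at -0.18. BGLU25 stayed past 2-fold in both settings, at -1.52 in the latter.

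The genes that make the glucosides, or act beside the family, were taken from lists of names. For coumarin and monolignol glucosides, 5 genes of 26 names were measured, 1 passed for ABA and 1 for genotype. UGT72E1, a glucosyltransferase of lignin precursors, fell with ABA, from 127 to 34.7 in vector plants and from 102 to 42.8 in the overexpressor. Its fitted log2 effect was -1.56 ± 0.35 (limma adjusted p = 0.000648). AT3G13610, the F6'H1 hydroxylase that makes the coumarin scopoletin, was at 6.60 on vector mock, below the floor, at 78.2 in ABA-sprayed vector plants, and at 391 under mock and 95.3 under ABA in the overexpressor. It passed for genotype (adjusted p = 2.22e-12), but its log2 difference was at least 4.88 under mock and 0.29 under ABA. As with BGLU25, vector mock was the lowest array and overexpressor mock the highest. Counted separately, vector mock was the lowest array for 25.1% of all genes and overexpressor mock the highest for 23.5%. UGT74B1, described below, had the same lowest and highest array, at 125 and 278. UGT72E2 and GT72B1 did not pass. GT72B1 read 226 on vector mock and 551 to 589 on the other arrays. Its fitted log2 effects were 0.74 ± 0.27 for ABA and 0.64 ± 0.27 for genotype.

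Of 44 names for glucosinolate synthesis and transport, 6 genes were measured and 0 passed by limma for either effect, with 2 at an unadjusted p under 0.05 for ABA and 0 for genotype. The brightest were BCAT4, of methionine chain elongation, with fitted log2 effects of -0.02 ± 0.27 for ABA and 0.37 ± 0.27 for genotype, and UGT74B1, which adds the glucose of glucosinolates, with 0.37 ± 0.27 and 0.52 ± 0.27. Of 25 names for glucosinolate breakdown, where the myrosinases belong, 1 gene had a probe set of its own and none was measured. Of 19 names for endoplasmic reticulum bodies, which hold PYK10, 2 were measured and 0 passed by limma, with 1 at an unadjusted p under 0.05, for ABA. That gene, NAI1, the transcription factor that drives their formation, was at 24.3 and 47.1 in vector plants, mock before ABA, and in the overexpressor below the floor under mock and at 48.1 under ABA, with a fitted ABA effect of 1.41 ± 0.71 (adjusted p = 0.535). JAL34, a jacalin-related lectin, was at 33.5 to 42.0. Of 22 names for flavonoid and anthocyanin glucosides, 5 genes were measured, BGLU15 included, and 0 passed by limma, with 0 at an unadjusted p under 0.05. UGT78D2, a flavonoid 3-O-glucosyltransferase, had an ABA effect of -0.11 ± 0.32, and DFR, of anthocyanin synthesis, one of -0.13 ± 0.52. None of the 18 names for dark and sugar starvation, a list that holds DIN2 (BGLU30), was measured. Of the genes matched to these names, 0 had a probe set of their own.

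**Figure D5:**
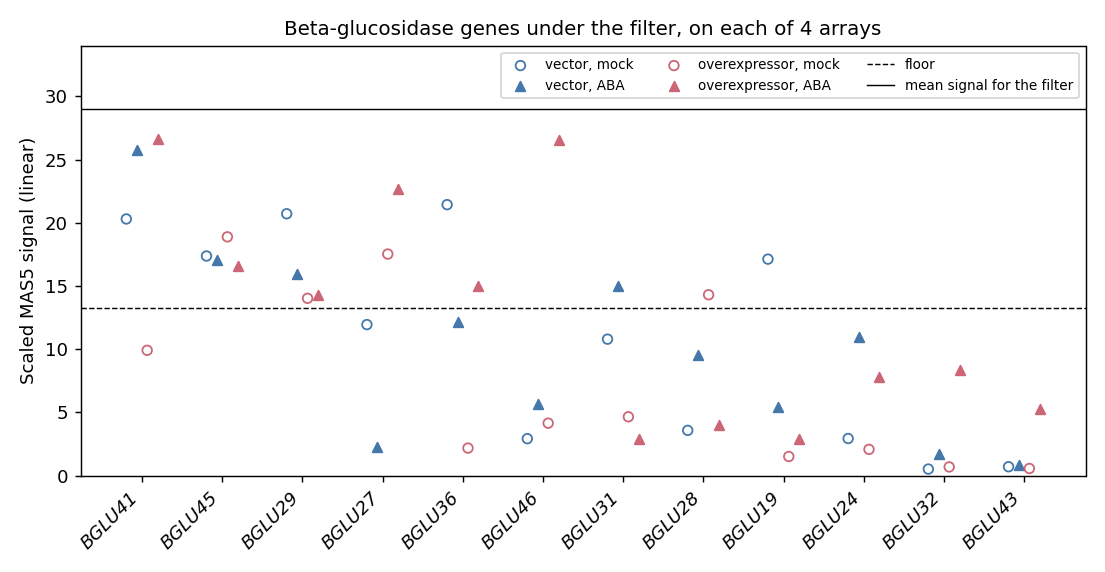
Scaled MAS5 signal (linear axis) of the 12 probed BGLU genes under the limit on mean signal, with 1 array per point; circles are mock and triangles ABA, and the lines mark the floor (dashed, 13.3) and the mean signal of 29 (solid). All points lie under 29, and most lie near or under the floor.

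The 12 probed BGLU genes under the limit were left out of the tests and counts above, except those made with no filter on dim genes. BGLU45 and BGLU29 were above the floor on all 4 arrays, at 16.6 to 18.9 and 14.0 to 20.7. Above it on 1 to 3 arrays were BGLU19, BGLU27, BGLU28, BGLU31, BGLU36, BGLU41 and BGLU46. BGLU41 read 20.3 and 25.7 in vector plants and 9.92 and 26.6 in the overexpressor, mock before ABA, and was above the floor on all arrays but overexpressor mock. BGLU28, which takes part in glucosinolate breakdown under sulfur deficiency, exceeded the floor on overexpressor mock only, at 14.3. BGLU24, BGLU32 and BGLU43 did not exceed it on any array. The probe set shared by BGLU21 and BGLU22, which hydrolyse the coumarin glucoside scopolin in roots, read 0.570 to 6.76. ATA27 (BGLU20) read 0.988 to 5.82. No detection calls were used, so a signal near the floor cannot be told from background.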

How the data were processed

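The deposited values are signal intensities per probe set. According to the submitters' processing notes the authors used MAS5, of which no version is stated there. This algorithm subtracts background and mismatch signal and scales arrays to one level, which hides any change in the amount of RNA. Of 22810 probe sets, 64 are controls and 13513 are paired with 1 gene by the platform annotation. Arrays were rescaled to a common trimmed mean of 100, a floor was set at the pooled 25th percentile (13.3), and signals were log2-transformed. Of probe sets at a mean of 29 or more, the brightest represented its gene, which gave 7327 genes. An additive model of genotype and spray was fitted to the 4 arrays with limma 3.58.1 in R 4.3.3, with a trend on signal, Benjamini-Hochberg adjustment over all genes and a threshold of 0.05. The prior degrees of freedom were infinite, so a gene's own residual did not enter its SE. Single-array differences were counted at 2-fold without a test. The number of arrays limits the precision.

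Named were all members, probed BGLU genes under the limit by signal alone, and, from each list, genes past the threshold or else the 2 brightest. UGT71B6, UGT72E2, GT72B1, COR15B, LHCB4.2, PORB, PYK10 and ATA27 fall outside this rule and were chosen after their values were seen. Members, lists and tests were chosen with earlier results of these data known. Gene symbols follow the RefSeq table for TAIR10.1, with list names matched by symbol or synonym, and no sequence was used here. Alternatives were other normalizations, filters, floors and spread models.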

Additional observations from a re-analysis of the deposited data

Results flagged for a closer look

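Several members had a difference whose sign was opposite in the groups compared, each group being 1 array, and none of these differences was tested. Opposite ABA differences in the genotypes were seen for BGLU25 (1.18 in vector plants and -0.45 in the overexpressor, a log2 difference of -1.63), BGLU16 (-0.41 and 0.21, a difference of 0.62) and BGLU33 (0.05 and -0.52, a difference of -0.57). Opposite genotype differences under the sprays were seen for BGLU44 (-0.12 under mock and 0.75 under ABA, a difference of 0.87), BGLU40 (-0.51 and 0.21, a difference of 0.72) and BGLU15 (-0.05 and 0.24, a difference of 0.29). The ABA differences had the same sign in both genotypes for 48.9% of all genes, and the genotype differences under both sprays for 52.1%, so opposite signs are common in these arrays. With arrays centred on the median, the genotype differences of BGLU44 and BGLU15 under mock became 0.05 and 0.12, the same sign as under ABA. In the same setting, genotype differences became opposite for BGLU33 (0.17 under mock and -0.77 under ABA) and BGLU42 (0.33 and -0.18), and ABA differences for BGLU42 (0.43 in vector plants and -0.08 in the overexpressor).

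Among the BGLU genes under the limit on mean signal, BGLU46, which hydrolyses monolignol glucosides, had a signal of 26.6 on overexpressor ABA, against 4.15 on overexpressor mock, 2.92 on vector mock and 5.70 on vector ABA. It is 1 array and 1 probe set, and the other arrays are below the floor of 13.3.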

How the results depend on the processing

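No paired analysis was possible because each group holds 1 array and so no replicate number to block on; the additive fit already has genotype and spray as terms. The number of genes called was 229 for ABA and 119 for genotype, against 116 and 6 with quantile normalization, 68 and 4 with centring on the median, 9 and 1 with eBayes without a trend, and 0 and 0 of 13356 by limma with no filter, where 641 and 562 had an unadjusted p under 0.05. At a mean signal at or above the 50th percentile, 62 were called for genotype. Of the members, 2 were called for ABA; 1 was called with quantile normalization, centring on the median, the 50th-percentile filter, the 10th-percentile floor, a pseudocount of 16, the mean over probe sets and a filter at the 40th percentile (29.03), and 0 without a trend or a filter. For genotype 1 member was called, and 0 with quantile normalization, centring on the median, no trend or no filter. The 40th-percentile filter and leaving out vector mock were chosen after seeing the data. The cause of these losses was not tested.

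Of single-array counts at 2-fold, those for ABA in vector plants (746 genes) were 1322 with no filter, 496 with the 50th-percentile filter and 411 with the pseudocount. In the same order, the counts were 1212, 356 and 279 for ABA in the overexpressor (629), 1288, 485 and 393 for genotype under mock (758), 1013, 218 and 161 for genotype under ABA (444), while the difference of the ABA effect (1365) gave 2509, 817 and 768. With no filter, 4 of 20 BGLU genes were past 2-fold for ABA in the overexpressor, against 9.07% of 13356 genes. Among these 4, BGLU41 and BGLU46 were under the floor on overexpressor mock, at 9.92 and 4.15. For genotype under ABA 1 of 20 was past 2-fold, against 7.58% of genes. In the ABA effect between genotypes 2 were, against 18.8%. No member's fold past 2-fold changed sign. Without the vector mock array, the ABA difference of BGLU40 was 2.53 and that of BGLU25 -0.45, with no test.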
